A study of Homo sapiens with 6 samples.

Results

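Antisense long noncoding RNAs (lncRNAs) and the genes they are named after were followed in SH-SY5Y cells, a human neuroblastoma line, after silencing of the RNA-binding protein PSF. The members were lncRNA rows of the RNA-seq table whose symbol ends in -AS and digits, selected on a siControl mean of at least 1 CPM (counts per 1000000 counts of the library), without EPB41L4A-AS1, OIP5-AS1 and the HOX genes. This gave 267 antisense lncRNAs of the 21301 genes in the table. Of the 551 lncRNA rows with such a symbol, 281 were under the floor and 3 were left out by name. Each was paired with the gene named before -AS, which was in the table for 253 of them (252 genes, since TSPEAR has a pair of antisense lncRNAs). For the other 14, such as GRM3-AS1 and CKMT2-AS1, the sense gene was not in the table.

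The cells received siControl or siPSF at 10 nM for 72 h, and 3 biological replicate libraries were sequenced per group. Both groups were the same line, grown in serum and transfected in the same way. The siPSF group received 1 of the study's siRNAs against PSF (siPSF #2), so effects of that siRNA on other RNAs cannot be told apart from those of PSF loss. SFPQ, the gene of PSF, stood at 372, 356 and 401 CPM with siControl and at 209, 193 and 165 CPM with siPSF, which left 50.2% (log2 fold change -0.99, adjusted p = 9.5e-05). Library totals lay between 101540520 and 132420931 counts. The 12 sympathoblast markers were all in the table and summed to 6107 to 6852 CPM in siControl and 5564 to 6810 CPM in siPSF. Of these, TH (43.2% of siControl, adjusted p = 0.025) and DBH (62.4%, adjusted p = 0.0024) were lower and GATA3 (123%, adjusted p = 0.032) was higher. TH was scarce, with 0.65 to 0.84 CPM in siControl and 0.17 to 0.42 CPM in siPSF, under the floor of 1 CPM. The siPSF 3 library stood apart from siPSF 1 and 2 for CHGA (1019 against 517 and 534 CPM) and CHGB (276 CPM, against 143 CPM in siPSF 2). The 3 epithelial markers summed to 2.10 to 2.84 CPM in siControl and 3.48 to 5.58 CPM in siPSF, where EPCAM was higher (181%, adjusted p = 0.014) and KRT8 and KRT18 overlapped between the groups (adjusted p = 0.77 and 0.19). The part of these markers in the results was not tested. Of the other lists, 2 of 5 Schwann and glial, 3 of 4 mesenchymal, 1 of 2 immune and 0 of 2 endothelial markers were in the table, with sums of at most 4.38 CPM.

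An antisense lncRNA is transcribed from the DNA strand opposite to its sense gene. It can start next to the sense promoter and run away from it, start inside the sense gene, or start past its 3′ end and run back towards it. Some antisense lncRNAs are known to act on the transcription, splicing or stability of the sense RNA, while many have no known role. PSF, encoded by SFPQ, is a nuclear protein of paraspeckles that binds RNA and DNA and takes part in splicing and transcription, including that of long neuronal genes.

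By RefSeq positions, with a single start per gene, the antisense start lay within 1 kb of the sense start in 121 of the 267 members. It lay inside the sense gene in 65, past the 3′ end of the sense gene in 66 and more than 1 kb upstream in 11, and 4 could not be placed. Such head-to-head starts are given for 4 called antisense lncRNAs whose sense gene starts inside the same RefSeq promoter window (GRCh38.p14, 250 bases before to 50 after the antisense start). The 4 are examples picked after their values were seen. UBL7-AS1, TMCO1-AS1 and TBX2-AS1 were also called and start 77, 7 and 237 bases from their sense genes in the same arrangement, and H1-10-AS1 starts 15 bases inside H1-10. The windows are read along the antisense strand, which is the plus strand in all 4, at chr3:67654447-67654746, chr4:4541881-4542180, chr13:45341095-45341394 and chr3:129893621-129893920, and the capitals run from the sense start to the antisense start.
SUCLG2-AS1: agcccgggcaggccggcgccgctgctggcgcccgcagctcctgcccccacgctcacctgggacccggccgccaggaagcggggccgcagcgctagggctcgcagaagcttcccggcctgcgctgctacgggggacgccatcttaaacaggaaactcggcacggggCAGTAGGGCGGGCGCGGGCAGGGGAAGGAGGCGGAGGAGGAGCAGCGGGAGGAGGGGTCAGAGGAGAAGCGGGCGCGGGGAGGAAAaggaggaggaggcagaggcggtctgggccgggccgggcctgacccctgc
STX18-AS1: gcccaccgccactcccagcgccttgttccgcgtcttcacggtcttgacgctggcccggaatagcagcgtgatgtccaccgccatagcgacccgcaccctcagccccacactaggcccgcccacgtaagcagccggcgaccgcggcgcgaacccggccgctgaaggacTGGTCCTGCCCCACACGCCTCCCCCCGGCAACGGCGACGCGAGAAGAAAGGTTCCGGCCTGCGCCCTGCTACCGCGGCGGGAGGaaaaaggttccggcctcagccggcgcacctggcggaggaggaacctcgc
TPT1-AS1: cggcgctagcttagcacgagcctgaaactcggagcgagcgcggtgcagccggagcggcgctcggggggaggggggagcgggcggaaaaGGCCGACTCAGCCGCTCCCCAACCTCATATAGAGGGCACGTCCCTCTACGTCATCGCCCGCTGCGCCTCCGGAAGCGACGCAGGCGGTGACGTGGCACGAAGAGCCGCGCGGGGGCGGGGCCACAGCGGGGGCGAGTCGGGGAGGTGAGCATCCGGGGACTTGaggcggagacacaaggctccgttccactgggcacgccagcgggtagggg
TMCC1-AS1: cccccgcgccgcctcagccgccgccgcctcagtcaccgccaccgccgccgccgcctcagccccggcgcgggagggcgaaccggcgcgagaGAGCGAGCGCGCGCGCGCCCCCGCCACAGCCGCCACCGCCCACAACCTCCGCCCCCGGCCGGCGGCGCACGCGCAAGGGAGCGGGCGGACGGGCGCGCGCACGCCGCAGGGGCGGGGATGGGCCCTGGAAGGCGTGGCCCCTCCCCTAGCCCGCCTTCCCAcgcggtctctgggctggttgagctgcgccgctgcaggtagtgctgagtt
The starts of SUCLG2 and SUCLG2-AS1 are 85 bases apart, those of STX18 and STX18-AS1 83, those of TPT1 and TPT1-AS1 162 and those of TMCC1 and TMCC1-AS1 160. All 4 windows hold GGGCGG on either strand and none holds CCAAT or TATAAA. Among the 225 members with a window, 59.1% hold GGGCGG, 29.8% CCAAT and 6.67% TATAAA, against 44.6%, 35.7% and 12.0% of the 27305 promoters in the table. The median number of CpG dinucleotides per window was 24 for the antisense lncRNAs and 14 for all promoters. The median was 27 in the 102 members with a window that start within 1 kb of the sense start and 21 in the other 123. The 4 windows thus show a shared start region of each pair, and the changes of both genes are given with the pairs.

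The antisense lncRNAs were mostly scarce. Their siControl means ran from 1.03 to 532 CPM (after TMM scaling) with a median of 3.90 CPM. There were 55 members at 10 CPM or more and 68 under 2 CPM. The smallest count of a member in any library was 25 and the median was 446.5. These levels chose the members and are a description only. Just inside the floor, by CPM over the column sum, were SMIM2-AS1 (1.06), TFAP2A-AS2 (1.08) and IER3-AS1 (1.10), and just outside were PSMD6-AS2 (0.999), ARRDC3-AS1 (0.980) and HEXA-AS1 (0.978).

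HAND2-AS1 gave by far the most reads. It is the antisense partner of HAND2, a transcription factor of sympathetic neurons that also marks neuroblastoma. It had 504, 509 and 584 CPM in siControl and 593, 546 and 552 CPM in siPSF, and the groups overlapped (log2 fold change 0.08 ± 0.09 (SE), adjusted p = 0.58). HAND2 itself had 1131 to 1221 CPM in siControl and 1113 to 1292 CPM in siPSF, also overlapping. Neither gene of this pair passed the test.

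FGD5-AS1, TP73-AS1, MAGI2-AS3 and RNASEH1-AS1 followed in the number of reads. FGD5-AS1 had 158, 155 and 169 CPM in siControl and 173, 166 and 106 CPM in siPSF, so that the third siPSF library alone was low. TP73-AS1 had 71.9 to 78.5 CPM in siControl and 73.7 to 77.0 CPM in siPSF. MAGI2-AS3 (63.3 to 84.7 CPM in siControl, 61.0 to 92.6 CPM in siPSF) and RNASEH1-AS1 (52.3 to 56.4 and 49.0 to 53.0 CPM) overlapped as well. None of these 5 members was called, with log2 fold changes from -0.11 to 0.08. Among their sense genes only RNASEH1, which encodes a ribonuclease of RNA-DNA hybrids, was called (194 ± 8.47 to 157 ± 4.49 CPM, SD, n = 3, 80.6% left, adjusted p = 0.019), in 3 of the 6 fits that left out a library.

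Compared per exon length, on the deposited FPKM scale, the antisense lncRNAs of siControl had a median of 2.33 FPKM and their sense genes a median of 9.23 FPKM. The median antisense level was 26.7% of that of its sense gene. In 55 of 253 pairs the antisense lncRNA was above the sense gene in all 3 siControl libraries. FGD5-AS1 had 39.6 ± 2.69 FPKM (SD, n = 3) and FGD5, a guanine nucleotide exchange factor of endothelial cells, 0.0960 ± 0.0192 FPKM. TTN-AS1 had 4.92 ± 0.639 FPKM and the titin gene TTN 0.0136 ± 0.00159 FPKM. At the other end, TPT1-AS1 had 3.17 ± 0.178 FPKM, 0.848% of the 374 ± 12.2 FPKM of TPT1.

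After siPSF, 32 antisense lncRNAs passed the threshold as lower and 9 as higher, and 226 were not called (quasi-likelihood test of edgeR, threshold 0.05 on p adjusted over all 19694 genes tested). This is 12.0% lower and 3.37% higher, where 8.27% of all genes tested were called lower and 6.65% higher (14.9% in either direction). Over the same siControl floor, the 14709 genes of all classes gave 9.68% lower and 7.12% higher. All 41 had groups that did not overlap, a state found in 107 members (40.1%) and in 34.4% of all genes tested. The median log2 fold change was -0.09 over the members and 0.01 over all genes tested, and 159 members (59.6%) lay below 0, against 48.4% of all genes tested. In bulk RNA, fewer cells that make an RNA and less of it per cell cannot be told apart.

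These counts depend on the level floor and on single libraries. The floor was set on siControl alone, which favours falls, and with a floor over all 6 libraries the counts were 28 lower and 11 higher, with a median log2 fold change of -0.05. Of the 32 lower members, ROR1-AS1, RFX3-AS1, SLC44A3-AS1 and SUCLG2-AS1 passed only through their siControl level. GLYCTK-AS1 (211% of siControl) and SNRK-AS1 (184%) are the 2 higher ones that the floor over all 6 libraries adds. Falls of more than 2-fold numbered 5 among the called members, and 2 under that floor, where 1 rise was as large. Without 1 library, the count of lower members was 17 (siControl 2), 18 (siControl 3), 21 (siPSF 1), 26 (siControl 1) or 29 (siPSF 2 or siPSF 3). The count of higher members was 2 (siControl 2), 4 (siControl 3 or siPSF 2), 5 (siPSF 1), 8 (siControl 1) or 14 (siPSF 3). On FPKM rescaled between libraries, an alternative added after seeing the data, 71 were lower and 3 higher, but there the median of all genes was itself -0.16. Called in all 6 fits that each left out a library were 15 of the 32 lower and 2 of the 9 higher members.

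**Figure D1:**
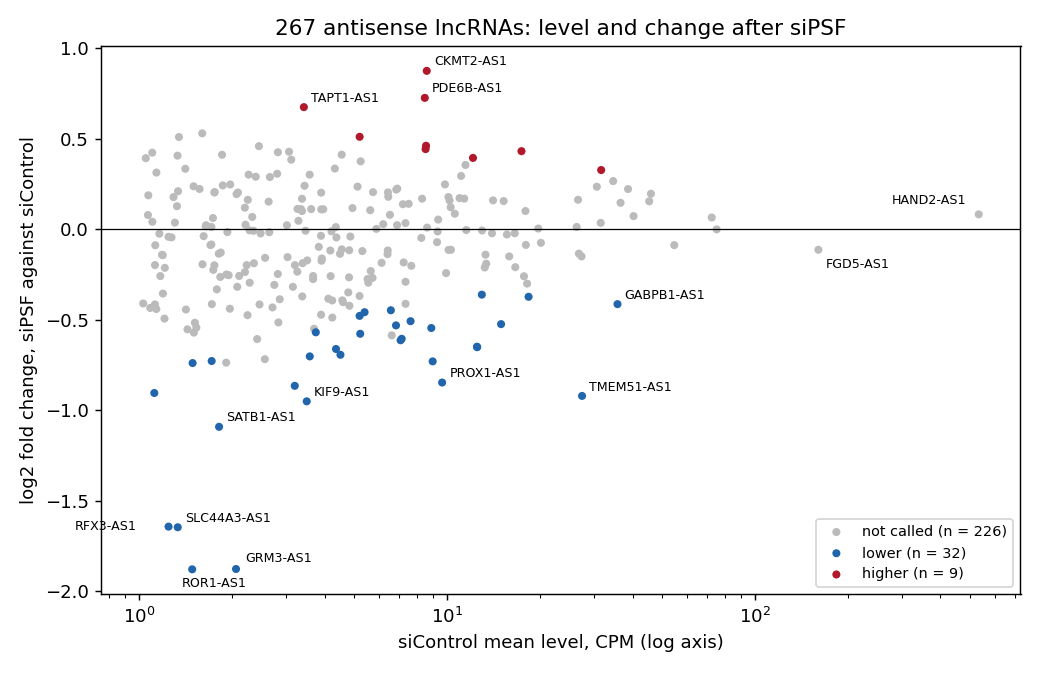
Each point is an antisense lncRNA, with its mean level over the 3 siControl libraries in CPM on a log axis and its log2 fold change after siPSF on the vertical axis. The 32 members called lower (blue) include 5 at a log2 fold change under -1, all of them at 1.24 to 2.06 CPM in siControl, near the siControl floor that chose the members, and HAND2-AS1 at 532 CPM is not called.

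The largest falls and rises named here were picked among called members whose groups do not overlap, so their lack of overlap is part of the rule. The 4 largest falls left 27.0% to 31.8% of the siControl level. Of these, ROR1-AS1, SLC44A3-AS1 and RFX3-AS1 passed the floor only through siControl, whose levels chose the members. ROR1-AS1 lies inside ROR1, the gene of a receptor for Wnt5a, at chr1:64094442-64113791 on the minus strand. It had 1.21, 1.43 and 1.82 CPM in siControl and 0.463, 0.417 and 0.325 CPM in siPSF. Every siPSF library was below every siControl library, with 27.0% left (log2 fold change -1.88 ± 0.25 (SE), adjusted p = 0.0005).

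GRM3-AS1 is named after the metabotropic glutamate receptor gene GRM3, which was not in the table. It had 1.92, 1.60 and 2.67 CPM in siControl and 0.572, 0.767 and 0.335 CPM in siPSF. Again the groups were far apart, with 27.1% left (log2 fold change -1.88 ± 0.29, adjusted p = 0.0014).

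SLC44A3-AS1 starts 369 bases from SLC44A3, a member of the choline transporter-like family, and spans 203881 bases of chromosome 1. It had 1.04, 1.67 and 1.29 CPM in siControl and 0.446, 0.502 and 0.325 CPM in siPSF (31.8% left, log2 fold change -1.65 ± 0.26, adjusted p = 0.0016). RFX3-AS1, upstream of the ciliary transcription factor gene RFX3 on chromosome 9, had 1.10, 1.12 and 1.52 CPM in siControl and 0.396, 0.540 and 0.254 CPM in siPSF (31.8% left, log2 fold change -1.64 ± 0.29, adjusted p = 0.0027). Both were lower in 3 of 3 siPSF libraries than in any siControl library, and both started from little more than 1 CPM.

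The next falls left 46.8% to 53.2%. SATB1-AS1, which starts beside the chromatin organizer gene SATB1, had 1.68, 1.84 and 1.94 CPM in siControl and 0.951, 0.928 and 0.669 CPM in siPSF (46.8% left, adjusted p = 0.0041). KIF9-AS1, named after a ciliary kinesin gene, had 3.53, 3.36 and 3.60 CPM in siControl and 1.72, 1.89 and 1.82 CPM in siPSF (51.7% left, adjusted p = 0.0015). Neither gene had overlapping libraries between the groups.

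TMEM51-AS1 was the most abundant of these. It had 25.5, 29.5 and 27.3 CPM in siControl and 15.5, 16.7 and 11.2 CPM in siPSF (52.8% left, adjusted p = 0.0011). SUCLG2-AS1, head to head with the gene of a succinyl-CoA ligase subunit, had 1.14, 0.929 and 1.29 CPM in siControl and 0.673, 0.616 and 0.497 CPM in siPSF (53.2% left, adjusted p = 0.022). Of these 8 falls, 7 kept their call when any library was left out, and SUCLG2-AS1 lost it without siControl 3. SUCLG2-AS1, too, passed the floor only through siControl.

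**Figure D2:**
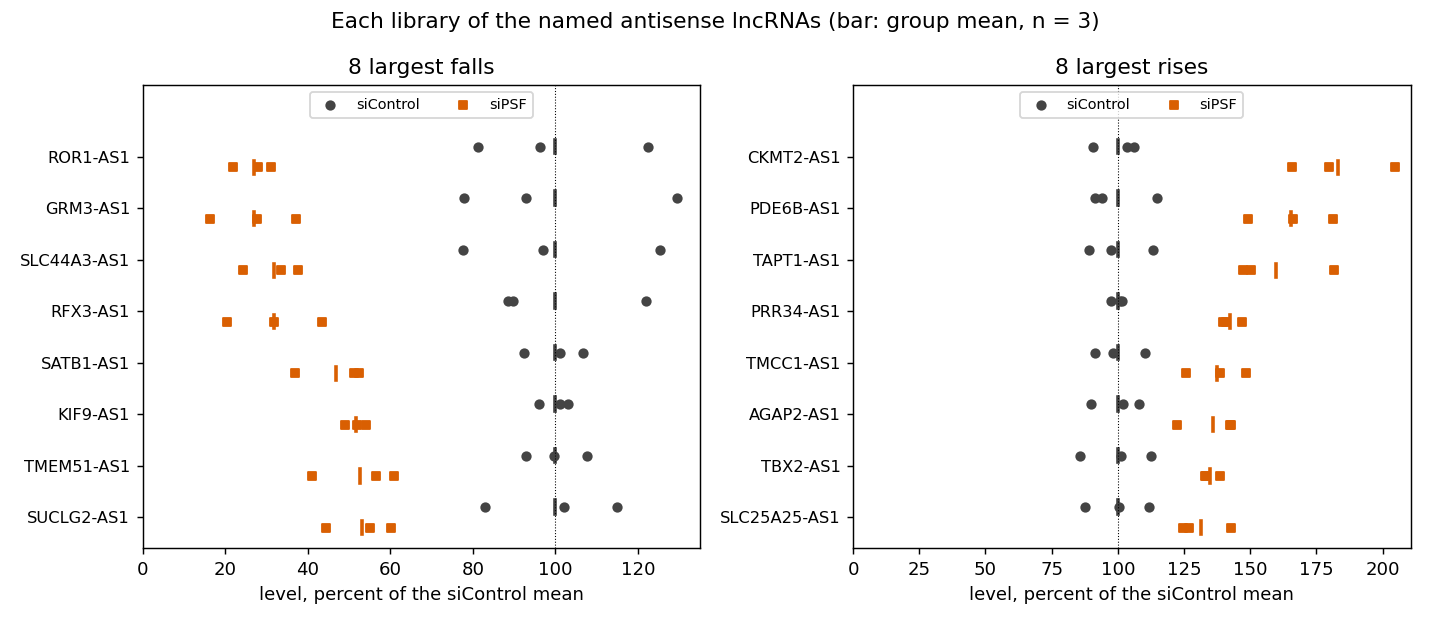
Each point is a library of the 8 antisense lncRNAs with the largest fall (left) and the 8 with the largest rise (right), as percent of the siControl mean, with siControl in grey circles, siPSF in orange squares and a bar at each group mean (n = 3). The 16 were picked among called members whose groups do not overlap, so the lack of overlap is part of the rule. Their siPSF means run from 27.0% (ROR1-AS1) to 183% (CKMT2-AS1), and the siControl floor admits low members that fell but not low ones that rose.

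The other 24 members called lower kept 54.9% to 77.8% of their siControl level, with log2 fold changes from -0.87 to -0.36. They include STX18-AS1, from a shared start region (3.20 ± 0.132 to 1.76 ± 0.0722 CPM, SD, n = 3), and PROX1-AS1, named after a homeobox gene (9.63 ± 0.227 to 5.35 ± 1.04 CPM). GABPB1-AS1 was the most abundant of all members called lower, with 33.6, 33.9 and 39.7 CPM in siControl and 23.4, 26.1 and 30.9 CPM in siPSF (75.1% left, adjusted p = 0.033). Its siPSF libraries came close to the siControl libraries without reaching them, and it was called in 2 of the 6 fits that left out a library, being lost without siControl 2, siControl 3, siPSF 1 or siPSF 2. STX18-AS1 and PROX1-AS1 are named here after their values were seen.

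The largest rises among the members were those of CKMT2-AS1 and PDE6B-AS1. CKMT2-AS1, named after the muscle mitochondrial creatine kinase gene CKMT2 (not in the table), had 9.10, 7.78 and 8.88 CPM in siControl and 17.6, 15.4 and 14.2 CPM in siPSF (183% of siControl, log2 fold change 0.88 ± 0.12, adjusted p = 0.00064). PDE6B-AS1 lies inside the gene of a rod phosphodiesterase subunit and had 7.97, 9.70 and 7.72 CPM in siControl and 14.1, 12.6 and 15.3 CPM in siPSF (165%, log2 fold change 0.73 ± 0.13, adjusted p = 0.0028). Both were higher in 3 of 3 siPSF libraries and were called whichever library was left out.

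TAPT1-AS1 had 3.06, 3.34 and 3.88 CPM in siControl and 5.04, 5.14 and 6.23 CPM in siPSF (160%, adjusted p = 0.011). PRR34-AS1 had 5.28, 5.07 and 5.25 CPM in siControl and 7.32, 7.26 and 7.64 CPM in siPSF (142%, adjusted p = 0.012). In both genes the groups were well apart, and both calls were lost only in the fit without siControl 2.

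The remaining rises were to between 125% and 138%. TMCC1-AS1, from a shared start region, had 9.41, 8.39 and 7.81 CPM in siControl and 12.7, 11.8 and 10.8 CPM in siPSF (adjusted p = 0.023). AGAP2-AS1 (8.51 ± 0.784 to 11.6 ± 0.988 CPM), TBX2-AS1 (17.4 ± 2.35 to 23.5 ± 0.548 CPM), SLC25A25-AS1 (12.1 ± 1.46 to 15.9 ± 1.20 CPM) and WAC-AS1 (31.6 ± 2.82 to 39.7 ± 1.88 CPM) completed the 9 rises, the last named after its values were seen. These 5 were called in 1 to 3 of the 6 fits that left out a library, and each lost its call in all of the fits without siControl 2, siControl 3 and siPSF 2.

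Of the 252 sense genes, 29 (11.5%) were called lower and 13 (5.16%) higher, and their median log2 fold change was 0.00. Among all genes tested, 8.27% were called lower and 6.65% higher, with a median of 0.01. The difference was not tested. In the 253 pairs, both genes were called lower in 7 and both higher in 0, and they were called in opposite directions in 1. The antisense lncRNA alone was called in 29 pairs, the sense gene alone in 35 and neither in 181. Across the pairs, the log2 fold changes of antisense and sense gene had Pearson's r = 0.25 and Spearman's rho = 0.21 (n = 253 pairs, which share the same 6 libraries), and 136 pairs (53.8%) had the same sign. Among the 29 pairs with the antisense lncRNA lower, the sense gene was called lower in 7 (24.1%), against 22 of the 216 pairs with an uncalled antisense lncRNA (10.2%). The strand setting of the counting is not stated, so reads of exons that both genes share may be counted for either.

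**Figure D3:**
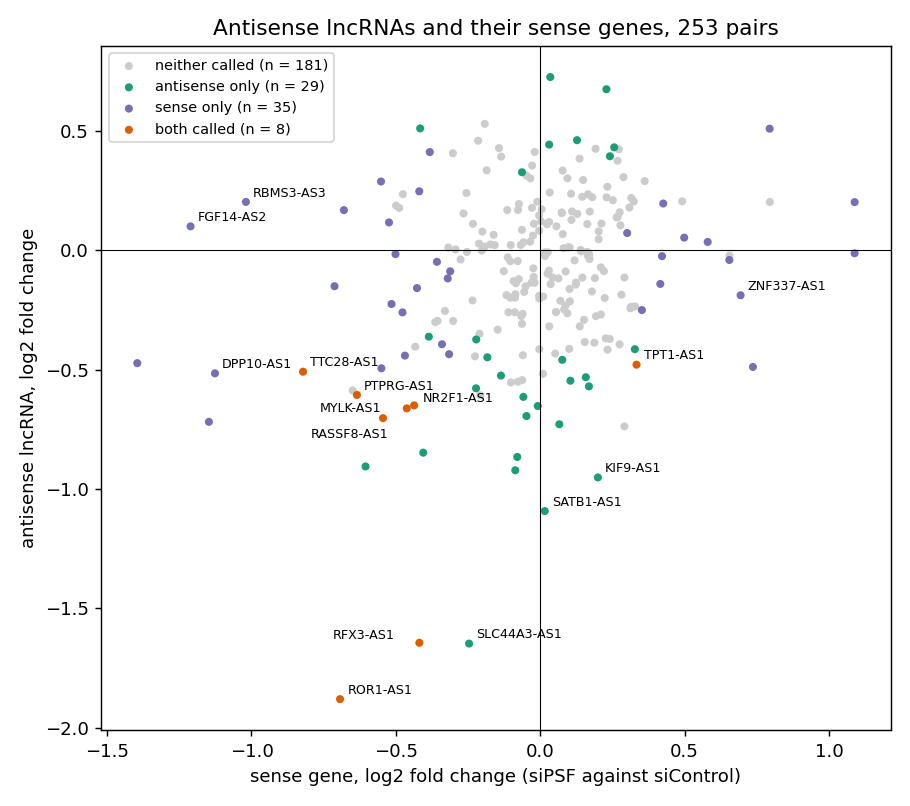
Each point is a pair, with the log2 fold change of the sense gene on the horizontal and that of the antisense lncRNA on the vertical axis, colored by which of the genes was called. The cloud is nearly round (r = 0.25 over 253 pairs), 7 of the 8 orange pairs with both genes called lie in the lower left, and TPT1-AS1 with TPT1 lies in the lower right.

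The 7 pairs with both genes lower were those of ROR1, RFX3, RASSF8, MYLK, NR2F1, PTPRG and TTC28, the last 5 named after their values were seen. With the floor over all 6 libraries, the pairs of ROR1 and RFX3 drop out and 5 are left. ROR1 had 13.4, 15.6 and 18.1 CPM in siControl and 10.5, 8.81 and 9.82 CPM in siPSF (61.8% left, adjusted p = 0.0041). RFX3 had 30.5, 32.4 and 40.6 CPM in siControl and 24.6, 24.9 and 27.8 CPM in siPSF (74.8% left, adjusted p = 0.031). In both pairs the antisense lncRNA fell further than the sense gene. The log2 ratio of antisense to sense went from -3.41 ± 0.09 to -4.61 ± 0.27 for ROR1 and from -4.80 ± 0.06 to -6.09 ± 0.63 for RFX3 (SD, n = 3, exact permutation test, p = 0.10, the smallest that 3 against 3 libraries can give).

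NR2F1, an orphan nuclear receptor gene, and its antisense lncRNA moved by like amounts. NR2F1-AS1 had 12.4, 12.2 and 12.9 CPM in siControl and 9.27, 7.58 and 7.04 CPM in siPSF (63.7% left, adjusted p = 0.0049). NR2F1 had 29.1, 32.2 and 33.8 CPM in siControl and 21.9, 20.4 and 27.9 CPM in siPSF (73.9% left, adjusted p = 0.032). Neither gene had overlapping groups, although the third siPSF library of NR2F1 came near the siControl range.

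PTPRG encodes a receptor tyrosine phosphatase and its antisense lncRNA starts past its 3′ end. PTPRG-AS1 had 7.05, 6.90 and 7.42 CPM in siControl and 4.53, 4.75 and 4.76 CPM in siPSF (65.7% left, adjusted p = 0.0057). PTPRG had 6.91, 5.71 and 6.76 CPM in siControl and 4.34, 4.60 and 3.53 CPM in siPSF (64.4% left, adjusted p = 0.013). The log2 ratio of the pair was 0.14 ± 0.12 in siControl and 0.18 ± 0.22 in siPSF (SD, n = 3, exact p = 0.80).

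TTC28 fell to 56.6% (97.9 ± 8.35 to 55.4 ± 7.17 CPM, SD, n = 3, adjusted p = 0.00046), and TTC28-AS1 to 70.2% (7.61 ± 0.127 to 5.34 ± 1.05 CPM, adjusted p = 0.038). RASSF8, of the Ras association domain family, fell to 68.6% (21.4 ± 3.02 to 14.6 ± 2.45 CPM) and RASSF8-AS1 to 61.4% (3.58 ± 0.827 to 2.20 ± 0.155 CPM). MYLK, the myosin light chain kinase gene, fell to 72.6% (4.54 ± 0.411 to 3.30 ± 0.296 CPM, just under the threshold) and MYLK-AS1 to 63.1% (4.36 ± 0.403 to 2.75 ± 0.768 CPM, adjusted p = 0.043). RASSF8-AS1 lost its call without siControl 2, siControl 3 or siPSF 1, MYLK-AS1 held it only without siPSF 2 and TTC28-AS1 only without siPSF 1. Of the 6 fits that left out a library, ROR1 and TTC28 were called in 6, PTPRG in 5 and RFX3, RASSF8, MYLK and NR2F1 in 2. Counted anew over all pairs in each fit, same-direction pairs numbered 1 without siControl 3, 2 without siControl 2 and 4 without siPSF 1 or siPSF 2. They numbered 6 without siPSF 3 and 7 without siControl 1. Both of the latter counts include pairs other than those named here, since MYLK-AS1 and TTC28-AS1 were called in neither fit.

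**Figure D4:**
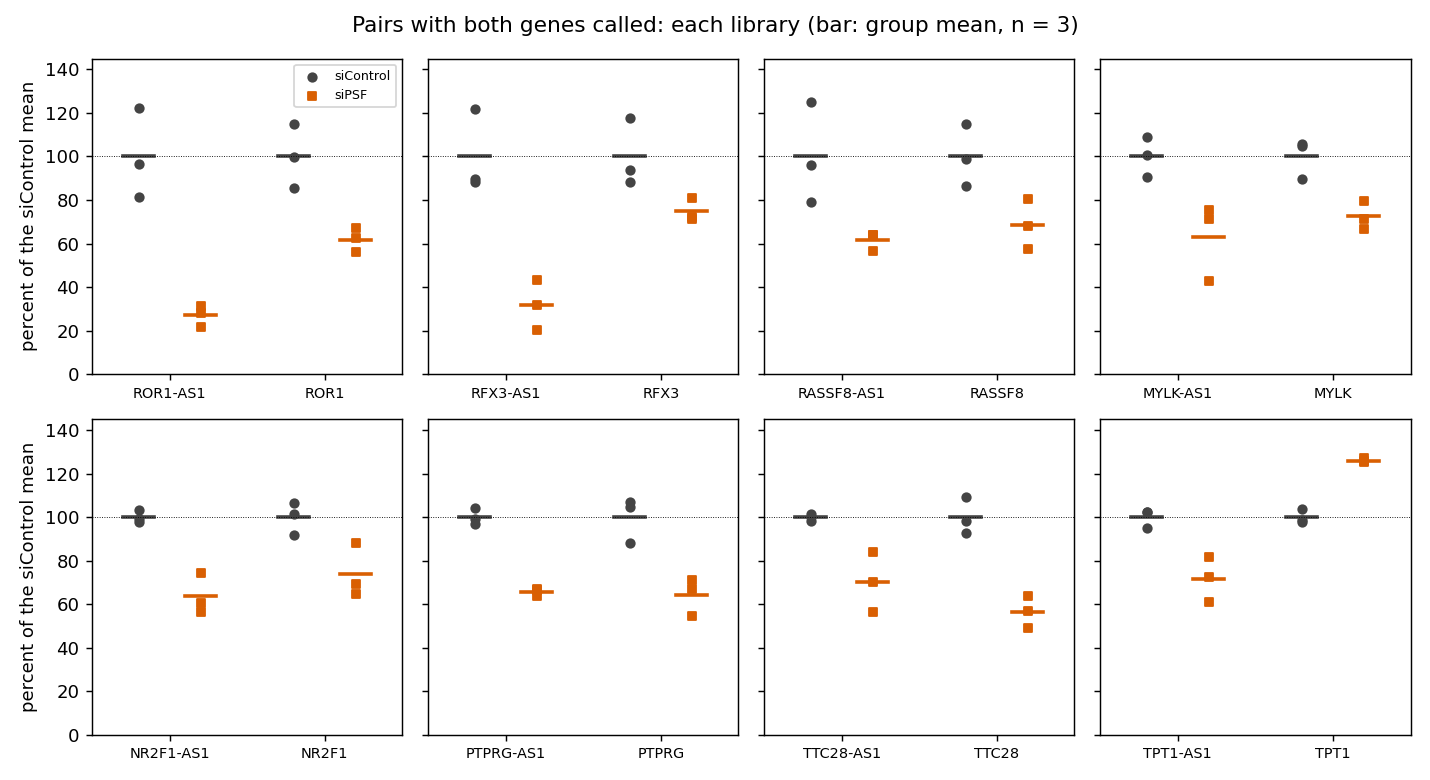
Each panel shows a pair with both genes called, antisense lncRNA on the left and sense gene on the right, as percent of the siControl mean for every library (grey circles siControl, orange squares siPSF, bars group means, n = 3). In 7 panels both genes lie lower in siPSF, with ROR1-AS1 and RFX3-AS1 falling further than ROR1 and RFX3, and in the last TPT1-AS1 lies lower while TPT1 lies at 126%. ROR1-AS1 and RFX3-AS1 passed the floor only through siControl, which favours large falls.

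TPT1 and TPT1-AS1 were called in opposite directions. The count of such pairs was 1 here, 0 with the replicate block, 0 without the count filter and 2 under DESeq2's Wald test. TPT1 encodes the translationally controlled tumor protein and starts 162 bases from TPT1-AS1 (chr13:45341345-45391483, plus strand), inside the same promoter window. TPT1-AS1 had 4.95, 5.32 and 5.32 CPM in siControl and 3.76, 3.17 and 4.25 CPM in siPSF (71.8% left, adjusted p = 0.044). TPT1 had 1939, 1829 and 1843 CPM in siControl and 2379, 2341 and 2351 CPM in siPSF (126%, adjusted p = 0.017). The groups overlapped in neither gene, the genes share no exonic base in GENCODE, and their log2 ratio went from -8.49 ± 0.11 to -9.31 ± 0.21 (SD, n = 3, exact p = 0.10). TPT1-AS1 was called in 1 of the 6 fits that left out a library (without siPSF 3), and TPT1 in 3.

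For the other large falls of an antisense lncRNA, the sense gene did not pass the test. SATB1 had 84.0, 79.5 and 93.0 CPM in siControl and 81.5, 78.7 and 99.1 CPM in siPSF (101%, adjusted p = 0.94) while SATB1-AS1 fell to 46.8%. KIF9 had 8.69 to 8.86 CPM in siControl and 9.50 to 10.9 CPM in siPSF (115%, adjusted p = 0.25), and TMEM51 had 42.0 to 44.5 and 39.9 to 41.2 CPM (94.2%, adjusted p = 0.53). SLC44A3 had 1.60 to 1.97 CPM in siControl and 1.01 to 2.01 CPM in siPSF (84.6%, adjusted p = 0.53). STX18, an ER SNARE gene whose start is 83 bases from that of STX18-AS1, stood at 31.5 ± 0.105 and 29.8 ± 1.56 CPM in siControl and siPSF (SD, n = 3, 94.6%, adjusted p = 0.59). SUCLG2 had 16.3, 13.3 and 18.0 CPM in siControl and 12.7, 11.7 and 6.87 CPM in siPSF (65.7%, adjusted p = 0.056), without overlap but short of the threshold.

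The log2 ratio of antisense to sense shifted without overlap, at the smallest possible exact p of 0.10, for SLC44A3 (by -1.36), KIF9 (by -1.15), SATB1 (by -1.12) and TMEM51 (by -0.85). It overlapped for SUCLG2 (difference -0.26, exact p = 0.40). The antisense lncRNAs of these pairs were picked for their large falls, which favours a lower ratio. SLC44A3-AS1 and SUCLG2-AS1 also passed the floor only through siControl. Of the 40 pairs compared by this ratio, 22 reached 0.10 and none can pass 0.05 in this design (smallest p adjusted over the 40 pairs, 0.18). The 40 are the pairs of the named genes and those called in the same direction. Many were picked by their change in these same libraries, so the 22 do not show how often pairs move apart. None of the 8 sense genes paired with an antisense lncRNA called higher was called. PDE6B stood at 102%, AGAP2 at 102%, TMCC1 at 109%, TAPT1 at 117%, SLC25A25 at 118%, TBX2 at 119% and PRR34 at 75.0% of siControl.

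In 35 pairs only the sense gene was called, which covers 34 genes, 22 lower and 12 higher. FGF14, a modulator of neuronal sodium channels, had 24.4, 24.1 and 26.0 CPM in siControl and 12.2, 10.7 and 9.16 CPM in siPSF (43.2% left, adjusted p = 7.3e-05). FGF14-AS2, inside it, had 3.09 to 3.68 CPM in siControl and 3.27 to 3.81 CPM in siPSF (107%, adjusted p = 0.69). The sense gene lost more than 50% of its level while the libraries of its antisense lncRNA overlapped.

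RBMS3, an RNA-binding protein gene, had 65.4, 62.8 and 75.6 CPM in siControl and 39.1, 33.2 and 28.2 CPM in siPSF (49.3% left, adjusted p = 0.0003). RBMS3-AS3, which starts 132 bases away in the other direction, had 1.90 to 2.27 and 2.24 to 2.51 CPM (115%, adjusted p = 0.44). DPP10, a partner subunit of Kv4 potassium channels, went from 11.8 ± 1.78 to 5.41 ± 0.448 CPM (SD, n = 3, 45.8% left, adjusted p = 0.00033). DPP10-AS1, inside it, went from 2.83 ± 0.355 to 1.98 ± 0.0691 CPM (69.9%, adjusted p = 0.051) and missed the threshold narrowly with groups that did not overlap. The zinc finger gene ZNF337 rose from 85.3 to 91.7 CPM in siControl to 131 to 157 CPM in siPSF (162%, adjusted p = 0.0004), while ZNF337-AS1 had 2.15 to 2.65 and 1.89 to 2.24 CPM (87.7%, adjusted p = 0.49).

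DBH, GATA3 and ID2 are further sense genes of this kind, named after their values were seen. DBH, which makes noradrenaline from dopamine, had 1485, 2046 and 1682 CPM in siControl and 1000, 1103 and 1151 CPM in siPSF (adjusted p = 0.0024), while DBH-AS1 went from 3.38 ± 0.37 to 3.80 ± 0.44 CPM (SD, n = 3, adjusted p = 0.50). GATA3, a transcription factor of sympathetic neurons, had 409, 405 and 386 CPM in siControl and 467, 479 and 533 CPM in siPSF (adjusted p = 0.032), while GATA3-AS1 had 34.8 to 47.2 and 41.4 to 43.8 CPM (adjusted p = 0.71). ID2, an inhibitor of basic helix-loop-helix factors, went from 110.0 ± 24.1 to 183 ± 33.5 CPM (adjusted p = 0.0081) and ID2-AS1 from 4.24 ± 0.29 to 3.02 ± 0.72 CPM (adjusted p = 0.083). The GATA3 call was lost in every fit that left out a library.

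Of a list of 30 antisense lncRNAs known from other work, 14 were members. BACE1-AS (3.94 CPM in siControl, over the column sum) and BDNF-AS (2.41 CPM) were over the floor but are not members, since their symbols lack a digit. Of the members on the list, GABPB1-AS1 was called lower and 0 were called higher. ZEB1-AS1 (12.5 to 13.7 CPM in siControl, 10.8 to 15.0 CPM in siPSF), DLX6-AS1 (3.10 to 4.33 and 3.96 to 4.35 CPM), GATA2-AS1 (12.3 to 14.3 and 8.83 to 13.5 CPM) and LEF1-AS1 (1.19 to 1.91 and 1.72 to 2.02 CPM) all had overlapping groups. So did TTN-AS1, SBF2-AS1, PSMG3-AS1 and DLGAP1-AS1, at 86.4%, 101%, 111% and 103% of siControl. PCBP1-AS1 (85.2%, adjusted p = 0.25) and TMPO-AS1 (82.6%, adjusted p = 0.19) were lower in 3 of 3 siPSF libraries without passing the test. HAND2-AS1, FGD5-AS1 and GATA3-AS1 are given above.

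By symbol, 34 sense genes were counted as transcription factors, 19 of them ZNF genes, a list that also took in PAXBP1 and PAXIP1 and missed RFX3, SATB1 and PROX1. Of the 34 sense genes, 2 were called lower (NR2F1 and FOXN3) and 3 higher (GATA3, ZNF337 and ZNF667), with a median log2 fold change of 0.08. Of their 34 antisense lncRNAs, 2 were called lower (NR2F1-AS1 and ZNF232-AS1) and 1 higher (TBX2-AS1), with a median of 0.01. Among all genes tested, 8.27% were called lower and 6.65% higher, and the differences were not tested.

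Calls were also counted by arrangement, beside 9.68% lower and 7.12% higher among all genes over the same siControl floor. Among the 121 members that start within 1 kb of the sense start, 13 (10.7%) were called lower and 5 higher. Both genes of a pair were called lower in 0 of their pairs, and the log2 fold changes had r = 0.06 (n = 120 pairs). Among the 65 that start inside the sense gene, 8 (12.3%) were lower and 2 higher, with 3 jointly lower pairs and r = 0.40 (n = 61). Among the 66 that start past the 3′ end, 7 (10.6%) were lower and 2 higher, with 3 jointly lower pairs and r = 0.33 (n = 61). Of the 11 upstream members 2 (18.2%) were lower, with the RFX3 pair jointly so. The correlations are descriptions over pairs measured in the same libraries, and neither their differences nor those between the counts were tested.

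Pairs were also split by shared exons. Exons of both genes were found in GENCODE for 236 pairs, of which 188 share exonic bases and 48 do not. The log2 fold changes had r = 0.19 in the sharing pairs and r = 0.30 in the others. Of the sharing antisense lncRNAs 21 were lower and 5 higher, and of the others 5 lower and 2 higher. Among all genes over the siControl floor, 9.68% were lower and 7.12% higher, and the differences were not tested. Of the 7 jointly lower pairs, those of RASSF8 (245 bases), MYLK (612), NR2F1 (158), PTPRG (1343) and TTC28 (983) share exonic bases, ROR1 and ROR1-AS1 share 0, and RFX3 and RFX3-AS1 do not overlap at all.

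The pairs were then split by the span of the sense gene. Among 63 sense genes that span at least 100 kb, 20 (31.7%) passed the threshold as lower and 1 as higher, against 9 of 189 shorter ones (4.76%) lower and 12 higher. Over all genes tested, of any span, 8.27% were lower and 6.65% higher. The share over all genes of 100 kb or more is not given here, so these counts do not set the sense genes apart from other long genes. Of the 29 pairs with the antisense lncRNA lower, the sense gene was lower in 6 of the 9 pairs with a sense gene of 100 kb or more and in 1 of the 20 others. Of 67 antisense lncRNAs with a sense gene of 100 kb or more, 10 were called lower, and of 198 with a shorter one, 21. The differences between these groups of genes were not tested.

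The members were also binned by the span of their own gene, without a test of the differences between bins. Among all genes over the siControl floor, of any span, 9.68% were called lower and 7.12% higher. Of 127 members that span under 10 kb, 10 were called lower and 5 higher, with a median log2 fold change of -0.04. Of 90 members of 10 to under 50 kb, 9 were lower and 3 higher (median -0.02), and of 28 members of 50 to under 100 kb, 5 were lower and 1 higher (median -0.26). Of the 21 members of 100 kb or more, 7 (33.3%) were lower and 0 higher, with a median of -0.39 and 18 of 21 below 0. Those 7 were SUCLG2-AS1, SLC44A3-AS1, NR2F1-AS1, STX18-AS1, PROX1-AS1, CSRP3-AS1 and NUTM2A-AS1, the last from a duplicated gene family whose copies may share reads. SUCLG2-AS1 and SLC44A3-AS1 passed the floor only through siControl, and with the floor over all 6 libraries 5 of 20 members of 100 kb or more were lower, 0 were higher and the median was -0.24. The median span was 26.4 kb for the members called lower, 7.56 kb for those called higher and 10.1 kb for those not called.

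**Figure D5:**
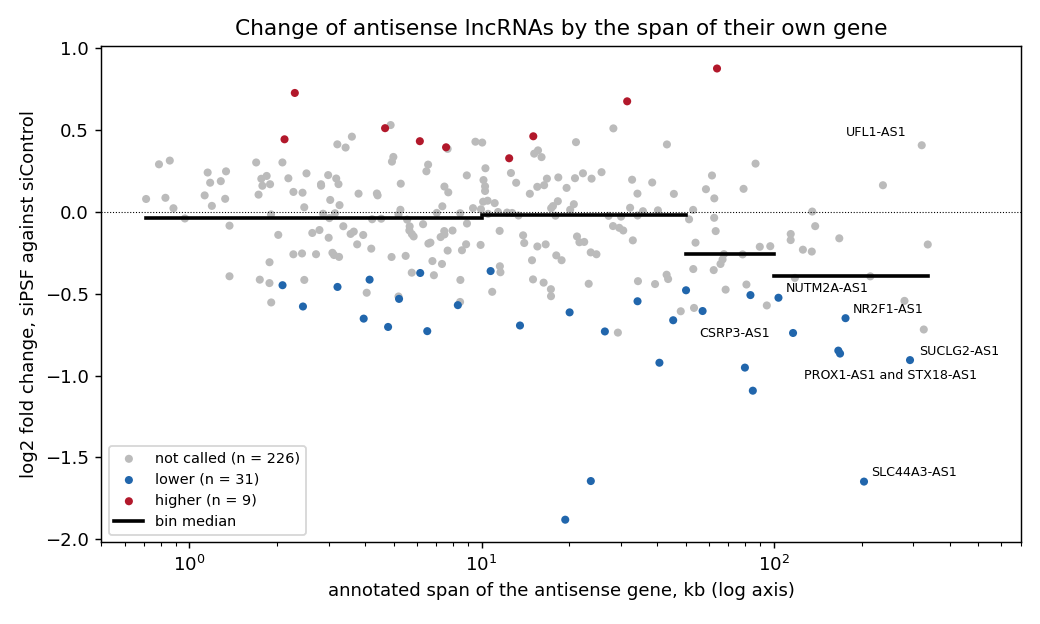
Each point is an antisense lncRNA with a RefSeq span, with the span of its own gene in kb on a log axis and its log2 fold change on the vertical axis (blue called lower, red called higher, grey not called). Black bars mark the medians of the span bins, which go from -0.04 under 10 kb to -0.39 at 100 kb or more, where 7 of 21 members are called lower and 0 higher.

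LncRNAs that are not members, under the same siControl floor, were binned in the same way. Of the 85 other lncRNAs over the floor that span 100 kb or more, 31 (36.5%) were lower and 4 higher (median -0.44), and of the 444 under 10 kb, 42 (9.46%) were lower and 38 higher (median -0.02). Over all spans, 993 other lncRNAs over the same floor gave 166 lower (16.7%) and 67 higher (6.75%), with a median log2 fold change of -0.10. Intergenic LINC genes gave 37 lower (23.9%) and 9 higher of 155, and divergent transcripts with symbols ending in -DT gave 8 lower (15.1%) and 2 higher of 53. Protein-coding genes over the floor gave 9.22% lower and 6.90% higher of 12656, with a median of 0.01. The antisense lncRNAs, with 12.0% lower, lie between the LINC genes and the protein-coding genes in this order, and the differences between classes were not tested. Antisense lncRNAs under the floor gave 9 lower and 6 higher of 257 tested.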

How the data were processed

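The authors deposited a table with a raw read count and an FPKM value per gene for each of the 6 libraries. The study's methods name poly(A) selection, rRNA removal with Bowtie 2, TopHat, hg38 and counts on RefSeq, while the labels name a stranded kit and the submitters' processing notes name Trimmomatic, HISAT2 2.1.0, StringTie 2.1.3b and GRCh38, so it is not settled which made the table or whether counting used strand. Deposited FPKM values are counts per exon length and per 1000000 reads, and 5.46% of FPKM per count values lay over 5% from their gene's median (13115 genes). Every row had at least 1 count in each library.

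Counts of the whole table were filtered with filterByExpr (19694 genes left), scaled by TMM (factors 0.964 to 1.053) and compared between siPSF and siControl by the quasi-likelihood test of edgeR, with no block for the replicate number. P-values were adjusted by Benjamini-Hochberg over all genes tested, and a gene was called at an adjusted p under 0.05. The biological coefficient of variation was 12.6%. Data of 19568 genes were simulated for this comparison, with this same coefficient for every gene and no library set apart. There, 47% of genes changed 1.5-fold and 85% of those changed 2-fold were recovered, and 4.35% of calls were false. These rates cover genes of all levels and need not hold for the real data or for the mostly scarce members. Counts of replicate libraries differed by a chi-square of at least 22.6 per degree of freedom, so no library was a copy of another. Antisense to sense log2 ratios were compared with two-sided exact permutation tests. Spans, starts and promoter windows came from the RefSeq tables of GRCh38.p14 and shared exons from GENCODE. The members, gene lists and tests were chosen with earlier results of these data known.

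Named genes are the 8 called members without overlap that fell most and the 8 that rose most, the 5 highest siControl levels, an opposite pair, the 4 called sense genes with the smallest p beside an uncalled antisense lncRNA, the 3 on either side of the floor, and the list of known antisense lncRNAs. Alternatives were leaving out each library, a replicate block, DESeq2's size factors, DESeq2's Wald test, no filter on low counts, limma on log2(FPKM + 0.5), other floors and pairs without overlap, and, added later, limma on rescaled FPKM and pairs without shared exonic bases. Versions were edgeR 4.0.16, DESeq2 1.42.0 and limma 3.58.1 in R 4.3.3, with Python 3.11.15.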

Additional observations from a re-analysis of the deposited data

How the results depend on the processing

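The counts of called antisense lncRNAs stayed within 1.5 times under DESeq2's size factors, DESeq2's Wald test, no filter, the other floors, the replicate block and limma on log2(FPKM + 0.5). Counts of pairs are small and moved. Pairs called in the same direction (7) were 12 under DESeq2's Wald test and 11 under limma on FPKM, 1 among pairs whose spans do not overlap and 1 among pairs that share no exonic base. The opposite pair (1) became 2 under DESeq2's Wald test and under limma on FPKM, and 0 without the filter and 0 with the replicate block. Replicate numbers did not pair the libraries (correlations of deviations -0.022, 0.056 and 0.056), and with the replicate block as a term 28 members were lower and 9 higher, so the block changed no other count by over 1.5 times. Under limma on rescaled FPKM, where the median of all genes was -0.16, 71 members were lower, 3 higher and their median was -0.20, with 57 sense genes lower and 2 higher, 23 pairs in the same direction and 0 opposite.

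With a library left out, the counts ranged from 17 to 29 for lower and from 2 to 14 for higher members, from 17 to 35 for lower and from 7 to 15 for higher sense genes, from 1 to 7 for pairs in the same direction and from 0 to 2 for opposite pairs, and the members' median from -0.11 to -0.05. Over 83 named genes and 984 values under other settings, 817 kept direction and side of the threshold, 90 fell short of it, 20 passed it newly, 57 uncalled values took another sign and 0 called values turned. Depth limits the rarest members, at 25 counts or more per library.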
